A study of Mus musculus with 34 samples.

Results

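The genes of the cytosolic ribosome were followed through RNA sequencing of mouse mammary adenocarcinoma cells that carry different forms of the glucocorticoid receptor (GR). Members were all gene names made of Rpl or Rps, digits and at most 1 of the letters a, x, y or l, together with Rplp0, Rplp1, Rplp2 and Rpsa; pseudogene names with -ps were left out. The rule found 83 of 55341 gene names in the counted table, 51 named for the large subunit and 32 for the small subunit, and it uses no measured value. The annotation calls 80 of them protein coding and 3 pseudogenes (Rps4l, Rpl32l and Rpl6l).

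The cells derive from the 3617 line, in which the endogenous receptor had been knocked out in every group, the wild-type groups included, and GFP-tagged mouse GR was stably expressed instead. All were kept with 10% serum, charcoal-treated from at least a day before hormone, and 5 ug/ml tetracycline, and were exposed for 2 h to 100 nM dexamethasone (Dex), a glucocorticoid drug, or to ethanol (EtOH) as vehicle. Library set 1 held Y551A-Dim with Dex and with EtOH, Y551A with Dex and with EtOH, and wild type (WT) with Dex and with EtOH, at 3 libraries each. Library set 2 held D647V-Tetra with Dex and with EtOH and D647V with Dex and with EtOH, at 3 libraries each, and its own WT with Dex and with EtOH, at 2 libraries each. Dim and Tetra are used here as in the labels, which leave them unexplained. Each receptor form is represented by a single line, so the receptor and the line cannot be told apart. The labels describe triplicates but no separate cultures, so p-values measure the spread between these libraries, which may be technical. The labels also name 2 total RNA kits used in 2 batches without assigning libraries to them, so no within-batch value could be given. Whether the comparisons within a library set also lie within a batch is not known from the labels.

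Ribosomal proteins pair with ribosomal RNA to form the small subunit, which decodes messenger RNA, and the large subunit, which joins amino acids. Most of these proteins are present in a single copy per ribosome, and their genes are among the most evenly co-expressed in mammals, and their messages usually begin with a run of pyrimidines, the TOP motif, through which mTOR and Larp1 control their translation and stability. Glucocorticoids are known for catabolic effects on protein synthesis in muscle and lymphoid cells, and several ribosomal protein transcripts serve as reference genes in expression studies.

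Libraries of set 1 held 44998213 to 70124595 counted reads and those of set 2 held 60277930 to 79776573. The receptor transcript Nr3c1 stood at 266.2 to 380 CPM (read counts scaled to library size) in set 1 and 234.4 to 341.2 CPM in set 2. Of 6 luminal epithelial markers only Gata3 passed 1 CPM; Epcam was at 0 in every library, and Krt8, Krt18, Cdh1 and Elf5 were at 0 or below 1 CPM. Fibroblast markers summed to 2368 to 2787 CPM in set 1 and 1666 to 2699 CPM in set 2, nearly all of it from Col1a2. Pdgfra stood at 22.25 to 39.34 CPM in set 1 and 26.25 to 30.33 CPM in set 2. Col3a1 stood at 10.52 to 14.01 and 6.771 to 8.422 CPM in the same order of sets. Col1a1 reached 2.442 CPM, and Dcn and Lum were at or near 0. Of 5 basal epithelial markers, Krt14 stood at 2.459 to 19.74 CPM in set 1 and 2.927 to 7.478 CPM in set 2, Trp63 reached 2.086 CPM, Acta2 stayed below 1 CPM, and Krt5 and Krt17 were at or near 0. The luminal keratins, Epcam and Cdh1 were thus at or near 0 in cells labelled as mammary adenocarcinoma, while Gata3 and Krt14 were detected at low levels.

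Of the 83 members, 79 passed the low-count filter in both sets, 48 of the large and 31 of the small subunit, and each of these had counts in every library. Rps4l and Rpl10l, a paralogue of Rpl10 known from testis, had no read. Rpl39l, a paralogue of Rpl39 known from testis, had 12 reads over 4 libraries, and Rpl3l, the striated-muscle paralogue of Rpl3, had 21 reads over 10 libraries. Their parent genes stood far above them, at a mean of 337.3 CPM per kb of exon for Rpl10, 357.1 for Rpl39 and 280.8 for Rpl3 in set 1. Rps27l, a p53-regulated paralogue of Rps27, was the exception, at 202.4 CPM per kb against 574.6 CPM per kb for Rps27 in set 1.

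Scaled by exon length, mean levels of the tested members in set 1 ran from 0.66 to 2130 CPM per kb. Rplp1, an acidic protein of the stalk that recruits elongation factors, had the highest level in both sets, with a mean of 2130 CPM per kb in set 1 (range over libraries 1986 to 2291) and 1883 in set 2 (1559 to 2203). Rpl32 followed with 1487 and 1267 CPM per kb in sets 1 and 2, and Rps15 and Rplp0, the scaffold of the stalk, lay at 1292 and 1255 CPM per kb in set 1. These neighbours did not differ beyond their spread: in set 2 Rplp0, at 902.3 to 1247 CPM per kb, and Rps15, at 904 to 1177, had the opposite order. The third stalk gene, Rplp2, ranked 28 in set 1 at 361.6 CPM per kb.

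The lowest tested members were the pseudogene Rpl6l at 0.66 CPM per kb, then Rpl24 at 2.55, the pseudogene Rpl32l at 3.03, Rps10 at 3.37 and Rpl29 at 5.01 in set 1. The authors' counting kept neither reads that align to several places nor reads that overlap several genes. Of the 100-base windows of its transcripts, Rpl24 shares 80.1% with transcripts of other genes, and 47.0% of its exon bases lie under exons of Gm28037 on the same strand. Rpl29 shares 50.3% of its windows with 25 other genes, Rpl6l 61.9% and Rps10 47.7%, whereas Rpl32l shares 0.0%. High sharing also occurred at high levels: Rps27 shares 98.4% of its windows and ranked 14 by level per length in set 1. Over all members, 74 share at least 1 such window with another gene and 26 share over 50%, so a level here is that of the uniquely assigned part; what part sequence sharing has in the low levels was not tested.

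In all, the members took 3.64% to 4.94% of counted reads. In set 1 the share was 4.5 ± 0.17% in Y551A-Dim with Dex and 4.46 ± 0.14% with EtOH, 4.47 ± 0.12% in Y551A with Dex and 4.6 ± 0.068% with EtOH, and 4.8 ± 0.035% in WT with Dex and 4.87 ± 0.081% with EtOH (SD, n = 3 each). Every mutant library of set 1 lay below every WT library. In set 2 the share was 3.81 ± 0.13% in D647V-Tetra with Dex and 4.5 ± 0.19% with EtOH, and 3.76 ± 0.16% in D647V with Dex and 4.04 ± 0.2% with EtOH (SD, n = 3 each). The WT libraries of set 2 held 4.185% and 4.554% with Dex and 4.129% and 4.564% with EtOH, so these groups overlapped. A share of reads is relative: fewer cells of a type and less RNA per cell cannot be told apart in these bulk samples, and a change of all transcripts together would leave it unmoved.

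**Figure D1:**
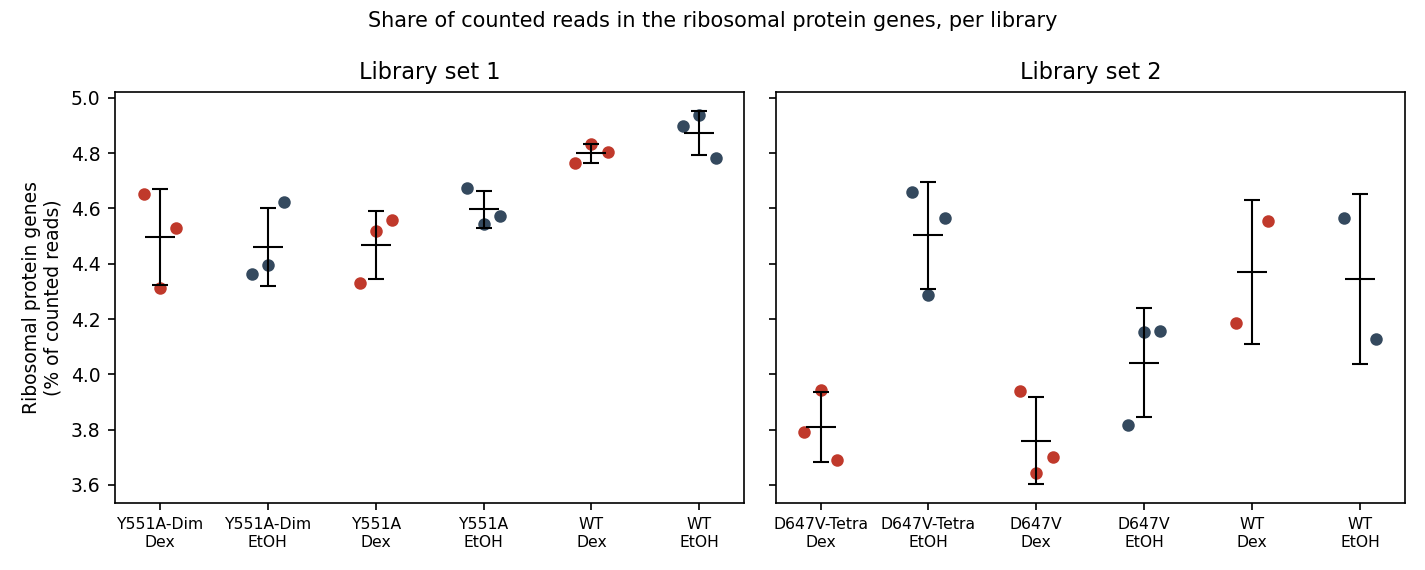
Share of counted reads (percent, vertical axis) in the 83 ribosomal protein genes, 1 point per library in red for Dex and dark slate for EtOH, with mean and SD per group (n = 3, or 2 for WT of set 2). The mutant lines of set 1 lie below WT, and D647V-Tetra with Dex, at 3.691% to 3.944%, lies below D647V-Tetra with EtOH, at 4.286% to 4.658%.

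The promoters of members that carry the results were read from the RefSeq sequence on GRCm38.p6, the mm10 assembly, where 61 of the 83 members had an entry. The sequences hold 100 bases before and 20 bases from the start site on, and capitals mark the motifs found: CCGGAAG, the core of ETS factors; GGGCGG, the SP1 box, or CCGCCC on the other strand; AAGATGGC, the core of YY1; and runs of at least 8 pyrimidines near the start. Rps18 and Rpl41 are shown for their fall with Dex in D647V-Tetra, Rps26 and Rpl13a for their lower baselines in set 1, and Rps27 for its YY1 core; all 5 lie on the minus strand.
Rps18 (chr17:33955646-33955765): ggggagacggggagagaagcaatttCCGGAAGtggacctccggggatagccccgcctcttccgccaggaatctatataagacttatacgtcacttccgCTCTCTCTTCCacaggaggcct
Rpl41 (chr10:128549149-128549268): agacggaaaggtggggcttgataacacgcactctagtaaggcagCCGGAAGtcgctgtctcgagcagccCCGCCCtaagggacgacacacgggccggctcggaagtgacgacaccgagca
Rps26 (chr10:128626487-128626606): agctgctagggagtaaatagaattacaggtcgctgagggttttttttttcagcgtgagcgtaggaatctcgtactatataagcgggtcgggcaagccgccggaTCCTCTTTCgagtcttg
Rpl13a (chr7:45128726-45128845): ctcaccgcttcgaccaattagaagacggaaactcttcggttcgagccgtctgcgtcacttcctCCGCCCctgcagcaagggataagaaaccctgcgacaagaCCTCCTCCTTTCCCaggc
Rps27 (chr3:90213629-90213748): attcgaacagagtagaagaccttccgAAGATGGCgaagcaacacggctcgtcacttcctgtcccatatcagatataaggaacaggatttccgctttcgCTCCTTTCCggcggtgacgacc

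The motifs were searched on both strands over 250 bases before to 50 after the start, and the 61 members have 73 such windows. CCGGAAG was present in 26 of the 73 member windows (35.6%), against 8.86% of all 32851 promoter windows. GGGCGG was present in 57.5% of member windows and 35.7% of all windows, AAGATGGC in 9.6% and 2.75%, and TATAAA in 9.6% and 13.6%. The E-box CACGTG was present in 8 of the 73 member windows and in 7.15% of all windows. A run of at least 8 pyrimidines on the gene's strand within 30 bases of the start was present in 50.7% of member windows and 22.9% of all windows. The palindromic glucocorticoid response element was in no member's window and in 16 of all windows. A match describes the letters in the window and nothing of whether a factor binds there.

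A 2 h exposure to Dex called no member in 5 of the 6 lines and library sets at an adjusted p under 0.05 in edgeR's quasi-likelihood test. The medians of the log2 changes were 0.00 in Y551A-Dim, -0.05 in Y551A and -0.04 in WT of set 1, where 1.09%, 1.84% and 3.4% of all 16140 genes were called. They were -0.11 in D647V and 0.04 in WT of set 2, where 0.941% and 1.72% of all 17535 genes were called. At an unadjusted p under 0.05, 3 members passed in Y551A-Dim, 7 in Y551A, 5 in WT of set 1, 22 in D647V and 0 in WT of set 2, and DESeq2 called 0 in each. The share of all genes at that unadjusted threshold is not given here. Leaving out Dex replicate 2 of Y551A-Dim gave 1 call there, and leaving out Dex replicate 1 of D647V gave 3. The typical standard error (SE) of a member was 0.041 log2 in set 1 and 0.074 to 0.091 in set 2, so small changes could not be detected at this spread.

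**Figure D2:**
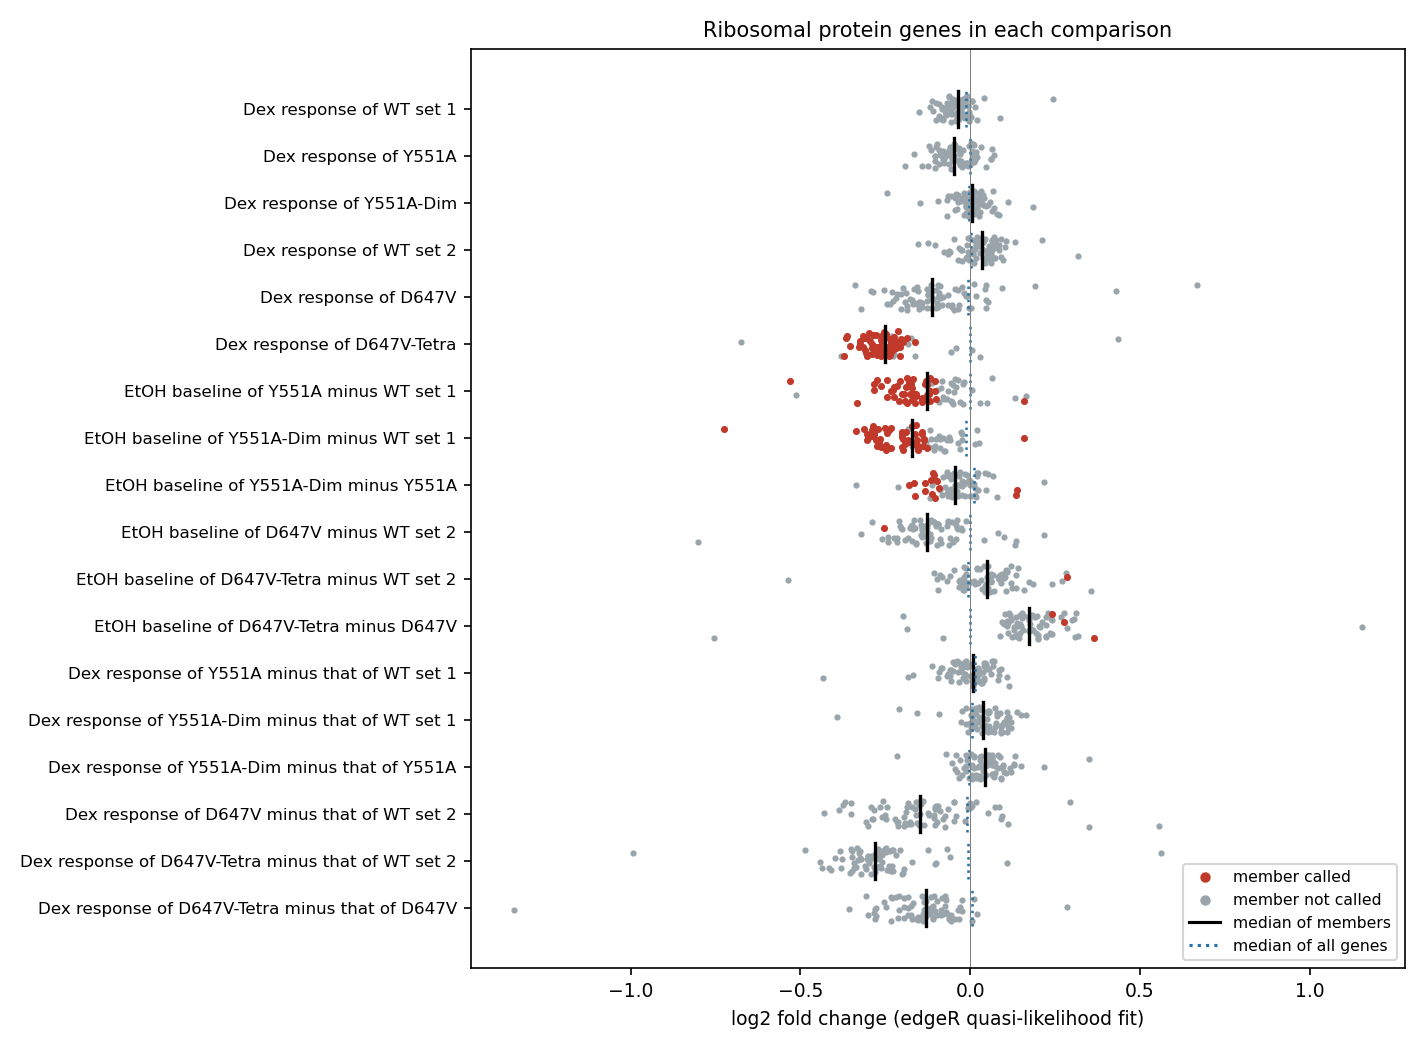
Log2 fold change (horizontal axis) of the 79 tested members in each of the 18 comparisons, with members called at an adjusted p under 0.05 in red, the members' median as a black line and the median of all genes as a dotted line. Called members lie mainly left of 0 in the Dex response of D647V-Tetra (61 members) and in the baselines of Y551A (49) and Y551A-Dim (51) against WT.

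In D647V-Tetra, 61 of the 79 members were lower with Dex than with EtOH and none was higher, where 7.89% of all genes were lower and 11.3% higher. The median member fell by 0.25 on the log2 scale, to 0.84 of the EtOH level, against a median of 0.00 for all genes. The called members spanned log2 changes of -0.37 to -0.16, a range that the threshold itself bounds near 0. All 79 tested members ran from -0.675 for Rpl32l to 0.436 for Rpl6l, both pseudogenes, with quartiles at -0.29 and -0.223. Called were 38 of 48 large-subunit and 23 of 31 small-subunit members, and the medians of the 2 subunits were -0.24 and -0.26. For 68 members all 3 Dex libraries lay below all 3 EtOH libraries. The share of all genes separated in this way is not given here, so the count is not set apart from it.

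Rps18 (chr17:33951999-33956001, minus strand), which encodes a protein of the small-subunit head, had the smallest adjusted p. Its levels were 192.7, 185.1 and 182.7 CPM in D647V-Tetra with Dex, against 234, 216.9 and 237.4 CPM with EtOH. The groups did not overlap, and the change of -0.30 ± 0.057 log2 (SE, n = 3 each; adjusted p 0.00219, edgeR) kept its call in every fit made with other settings or with any 1 library left out.

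Rpl35a (chr16:33056453-33060189, plus strand), a large-subunit protein gene mutated in some Diamond-Blackfan anaemia, had the lowest change among called members. It stood at 399.2, 431.4 and 340.9 CPM with Dex, against 540.3, 459.5 and 515 CPM with EtOH in D647V-Tetra. Its highest Dex library lay close under its lowest EtOH library, and the change was -0.37 ± 0.11 log2 (adjusted p 0.026, edgeR).
Rpl41, the smallest ribosomal protein, was counted at 628.4, 638.5 and 554.5 CPM with Dex, against 773.1, 747 and 825.6 CPM with EtOH, a clear separation and a change of -0.36 ± 0.084 log2 (adjusted p 0.00766, edgeR). Rpl36 had 305, 315.9 and 283.2 CPM with Dex, against 395.5, 363.8 and 396.5 CPM with EtOH, also without overlap (-0.35 ± 0.11 log2). Rpl17, which lines the exit of the peptide tunnel, changed by -0.36 ± 0.12 log2, on 338.7 to 445.9 CPM with Dex and 459 to 568.8 CPM with EtOH.

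Most stalk genes and common reference transcripts fell as well. Rplp0 (chr5:115559467-115563727, plus strand) stood at 1621, 1616 and 1540 CPM with Dex, against 1895, 1782 and 1884 CPM with EtOH in D647V-Tetra, a change of -0.22 ± 0.063 log2 without overlap. Rplp1 changed by -0.26 ± 0.076, Rpl13a by -0.23 ± 0.063 and Rpl19 by -0.24 ± 0.08 log2, all called. Rplp2 had a change of -0.22 ± 0.097 log2 that was not called.
A few members had values near 0. Rpl6 had 283.3, 261.2 and 276.3 CPM with Dex, against 257.6, 279.8 and 308 CPM with EtOH, so its groups overlapped (-0.04 ± 0.06 log2). Rpl29, at 0.01 ± 0.097, Rpl24, at 0.03 ± 0.18, and Rps10, at -0.06 ± 0.095 log2, are among the members with the lowest levels per length. Rps26 (-0.23 ± 0.084), Rps24 (-0.29 ± 0.1), Rps29 (-0.25 ± 0.088) and Rps27l (-0.38 ± 0.13) were separated between the groups but missed the threshold.

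**Figure D3:**
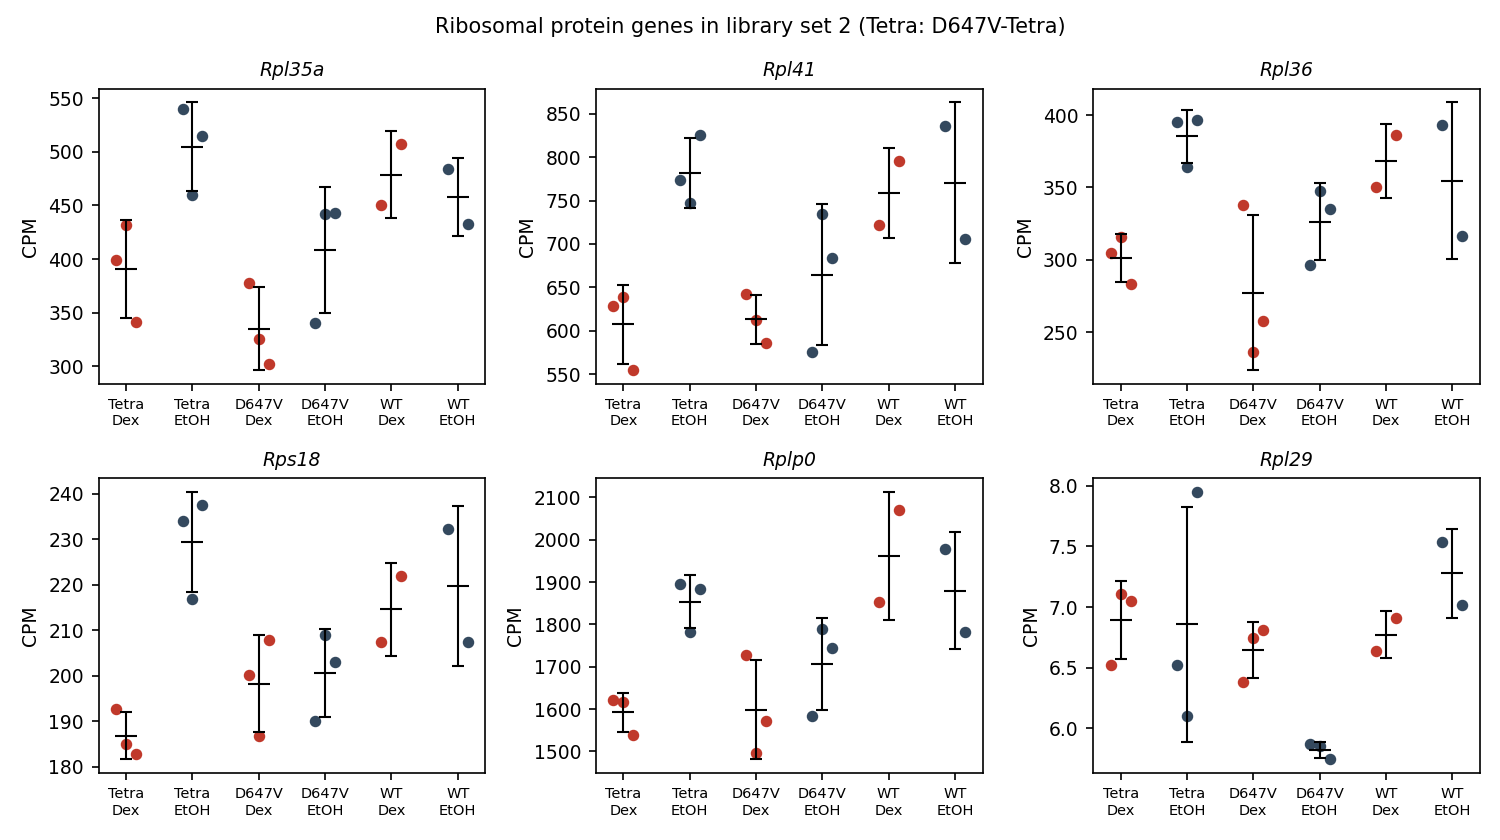
Levels (CPM, vertical axes not starting at 0) of 6 members in the libraries of set 2, red for Dex and dark slate for EtOH, with mean and SD (n = 3, or 2 for WT). In D647V-Tetra the Dex libraries lie below the EtOH libraries for Rpl35a, Rpl41, Rpl36, Rps18 and Rplp0 but not for Rpl29. In WT, Dex and EtOH libraries overlap for Rpl35a, Rpl41, Rpl36, Rps18 and Rplp0, while for Rpl29 the Dex libraries lie lower.

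Other genes of protein synthesis in D647V-Tetra with Dex were counted in lists chosen with earlier results known. In the other 5 Dex responses no gene was called among the mitochondrial ribosomal proteins, the genes with TOP messages or the assembly factors. Mitochondrial ribosomal proteins were lower for 26 of 77 and higher for none, with a median of -0.18 log2. Of 8 cytosolic ribosomal protein genes that the naming rule leaves out, Rpl22l1 (-0.28 ± 0.071), Fau (-0.25 ± 0.08) and Rack1 (-0.22 ± 0.062) fell. Of 19 translation factors and other genes with TOP messages, 4 fell, among them the elongation factor genes Eef1a1 (-0.18 ± 0.058) and Eef1b2 (-0.27 ± 0.087), and Pabpc1, the poly(A)-binding protein, rose by 0.46 ± 0.1. Ribosome assembly factors were lower for 4 of 37 and higher for 2, with a median of -0.06, counts not set apart from the 7.89% lower and 11.3% higher among all genes. Among 18 regulators of these messages, 5 rose: Eif4ebp2, which holds back cap-dependent translation, by 0.74 ± 0.091 log2, Mtor by 0.39 ± 0.074, Rptor by 0.36 ± 0.11, Larp1 by 0.36 ± 0.067 and Tsc1 by 0.24 ± 0.064. Ddit4, an mTORC1 inhibitor known as a glucocorticoid target, fell by 0.34 ± 0.075 and Lyar fell by 0.25 ± 0.069. In the other 5 Dex responses 2 regulators were called, Eif4ebp2 higher in Y551A (0.29 ± 0.071 log2, adjusted p 0.0274, edgeR) and Myc lower in WT of set 1 (-0.31 ± 0.055, adjusted p 0.000421).

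Gene length moved with the same libraries. Across 10374 genes, the correlation of a library's deviation from the set mean with log2 exon length was 0.3, 0.077 and 0.4 in D647V-Tetra with Dex, against -0.42, -0.29 and -0.44 with EtOH. Among other genes of at least 5000 bases, 22.9% were higher with Dex and 3.18% lower, whereas among other genes of 1000 to 2000 bases 5.06% were higher and 12.1% lower, with a median of -0.09 log2. The members' median in that length class was -0.24 log2, and in every length class it lay between -0.29 and -0.23. When each library's trend over gene length was taken out, 28 members were called lower, with a median of -0.20 log2 against -0.03 for all genes. With the length of the principal transcript in place of all exons, 14 were called, with a median of -0.18. The share of all genes called in these fits is not given here, so the counts are not set apart from it. The mitochondrially encoded share of reads was also higher with Dex in D647V-Tetra, at 1.727%, 1.661% and 1.874%, against 1.367%, 1.384% and 1.378% with EtOH. In D647V, where no member was called, it was higher with Dex too, at 1.989%, 2.187% and 2.089%, against 1.621%, 1.32% and 1.485% with EtOH. In WT of set 2 it overlapped, at 1.723% and 1.442% with Dex and 1.313% and 1.636% with EtOH. The part of this share in the result was not tested.

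**Figure D4:**
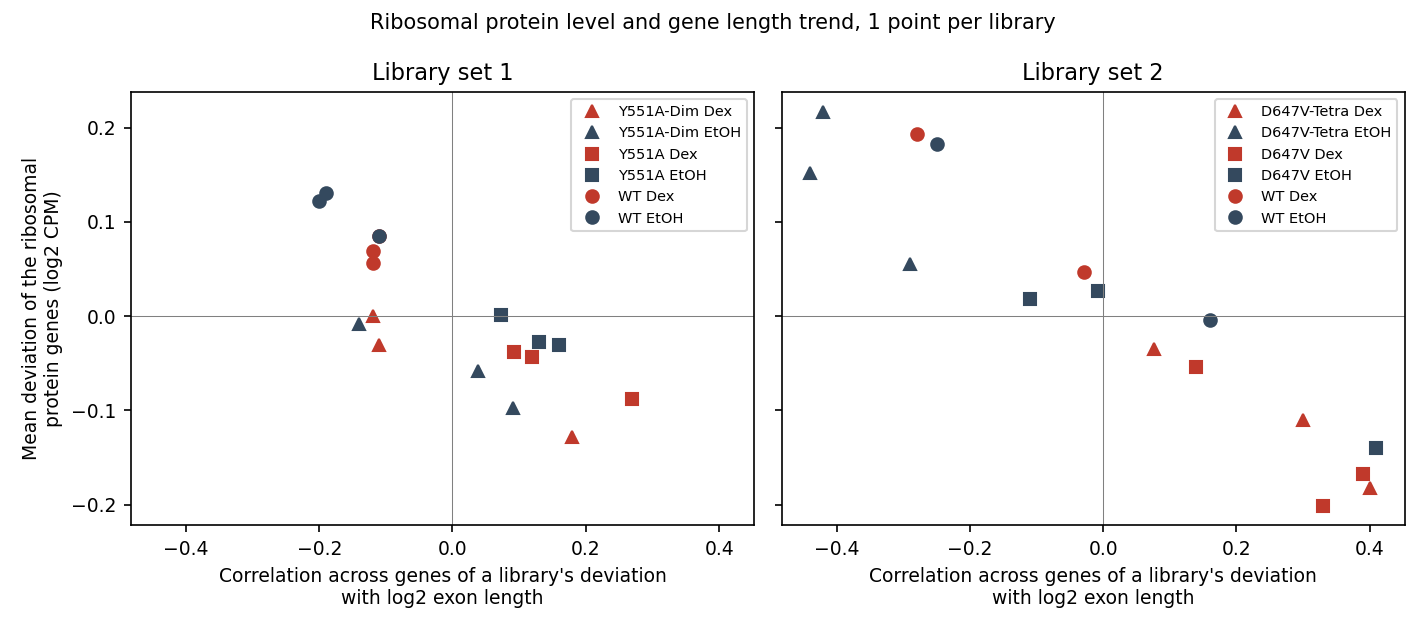
Mean log2 deviation of the members from the set mean (vertical axis) against the correlation, across genes, of a library's deviation with log2 exon length (horizontal axis), 1 point per library, red for Dex and dark slate for EtOH. In set 2 the D647V-Tetra libraries with Dex lie at the lower right and those with EtOH at the upper left, and the WT and D647V libraries spread along the same direction.

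The count in D647V-Tetra depended on single libraries more than its median did. Leaving out Dex replicate 3 left 5 members called, Dex replicate 1 left 18, EtOH replicate 1 left 18 and EtOH replicate 3 left 20, whereas 66 and 64 were called without EtOH replicate 2 or Dex replicate 2. Over these 6 fits the median stayed between -0.29 and -0.21 log2.

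Whether this response differed from that of the other lines was tested directly, and edgeR called no member. Against the response of WT in set 2 the median difference was -0.28 log2 over members and -0.01 over all genes. Of 79 values, 77 lay below 0 and 58 had an unadjusted p under 0.05. The smallest adjusted p (edgeR) was 0.0629, for Rpl39, a protein of the peptide tunnel. At an adjusted p under 0.05, 4.41% of all genes were called. DESeq2 called 9 members, and edgeR called 17 without WT EtOH replicate 1, 10 without D647V-Tetra EtOH replicate 2, 4 without WT Dex replicate 1 and 3 without D647V-Tetra Dex replicate 2. Against the response of D647V the median difference was -0.13 log2, with 15 members at an unadjusted p under 0.05, 3 called by DESeq2 and 0.873% of all genes called by edgeR. The response of D647V minus that of WT had a median of -0.15 log2, with 9 members at an unadjusted p under 0.05 and 0 in DESeq2, where 0.188% of genes were called. These differences share libraries with each other. The share of all genes at the unadjusted threshold is not given here, so the unadjusted counts are not set apart from it.

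In set 1 no difference of response called a member either, in edgeR or in DESeq2. The median was 0.04 log2 for Y551A-Dim minus Y551A, 0.04 for Y551A-Dim minus WT and 0.01 for Y551A minus WT, with 5, 4 and 2 members at an unadjusted p under 0.05. Of all genes 0.558%, 1.47% and 0.18% were called in these differences.

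Without hormone, each mutant line of set 1 differed from WT in most members. In Y551A with EtOH, 49 members were lower and 1 was higher than in WT, where 23.5% of all genes were lower and 18.9% higher. The median member fell by 0.13 on the log2 scale, to 0.915 of WT, while the median of all genes was 0.00. In Y551A-Dim with EtOH, 51 members were lower and 1 was higher than in WT, where 13.3% of all genes were lower and 10% higher, and the median member fell by 0.17, to 0.889 of WT. Both baselines use the same 3 WT libraries, so they are not independent of each other.

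Rpl27, a large-subunit protein gene at chr11:101442298-101445529 on the plus strand (mm10), stood at 119, 124.4 and 132.5 CPM in Y551A-Dim and 122.6, 120.3 and 121 CPM in Y551A, against 158.5, 155.2 and 144.8 CPM in WT. All mutant libraries lay below all WT libraries, and the changes were -0.29 ± 0.048 log2 in Y551A-Dim and -0.33 ± 0.049 in Y551A (SE, n = 3 each).
Rps23 (chr13:90922958-90924950, plus strand), whose protein sits at the decoding centre, had 176.8, 180.6 and 197.3 CPM in Y551A-Dim and 188.6, 184.6 and 181.6 CPM in Y551A, against 221.2, 228.9 and 224.5 CPM in WT. It was separated in the same way, with -0.28 ± 0.041 log2 in each line.
Rps26, which lies where messenger RNA leaves the ribosome, had 567.5, 577.2 and 570.8 CPM in Y551A-Dim and 610.2, 583.6 and 595.8 CPM in Y551A, against 707.3, 704.5 and 707 CPM in WT. Again no mutant library reached the WT range, and the changes were -0.30 ± 0.036 log2 in Y551A-Dim and -0.24 ± 0.036 in Y551A.

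Rpl29 had the lowest change in Y551A, -0.53 ± 0.1 log2, on low counts of 5.585, 5.656 and 5.693 CPM in Y551A-Dim and 4.339, 5.03 and 5.17 CPM in Y551A, against 7.542, 6.398 and 7.093 CPM in WT. Rpl13a changed by -0.26 ± 0.066 log2 in Y551A-Dim and -0.28 ± 0.066 in Y551A; its annotated exons overlap other genes on the same strand over 35.4% of their length. The pseudogene Rpl32l, with 0.8198, 0.7252 and 1.304 CPM in Y551A-Dim against 1.712, 1.27 and 1.731 CPM in WT, had the lowest change there (-0.72 ± 0.26 log2), and its groups overlapped.

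Rpl7 (chr1:16101295-16104662, minus strand) was the only member called higher in either baseline. It had 1826, 1776 and 1818 CPM in Y551A-Dim and 1811, 1796 and 1823 CPM in Y551A, against 1617, 1696 and 1548 CPM in WT, and was higher by 0.16 ± 0.037 log2 in both lines. Rpl7 was also the only member called higher in D647V-Tetra against WT of set 2, by 0.28 ± 0.071 log2, with 1936, 1703 and 1805 CPM in D647V-Tetra against 1539 and 1441 CPM in WT; the value for D647V against WT was 0.13 ± 0.07 and was not called. Rpl7 shares 28.2% of its 100-base windows with 6 other genes.
The stalk genes were not called in either baseline of set 1. Rplp0, at 1975, 2004 and 2079 CPM in Y551A-Dim and 2229, 2122 and 2195 CPM in Y551A, against 2118, 2137 and 2065 CPM in WT, had changes of -0.06 ± 0.043 and 0.05 ± 0.043 log2 in the same order of lines. Rplp1 had -0.11 ± 0.041 and -0.10 ± 0.041, and Rplp2 had -0.09 ± 0.045 and -0.05 ± 0.045 log2.

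**Figure D5:**
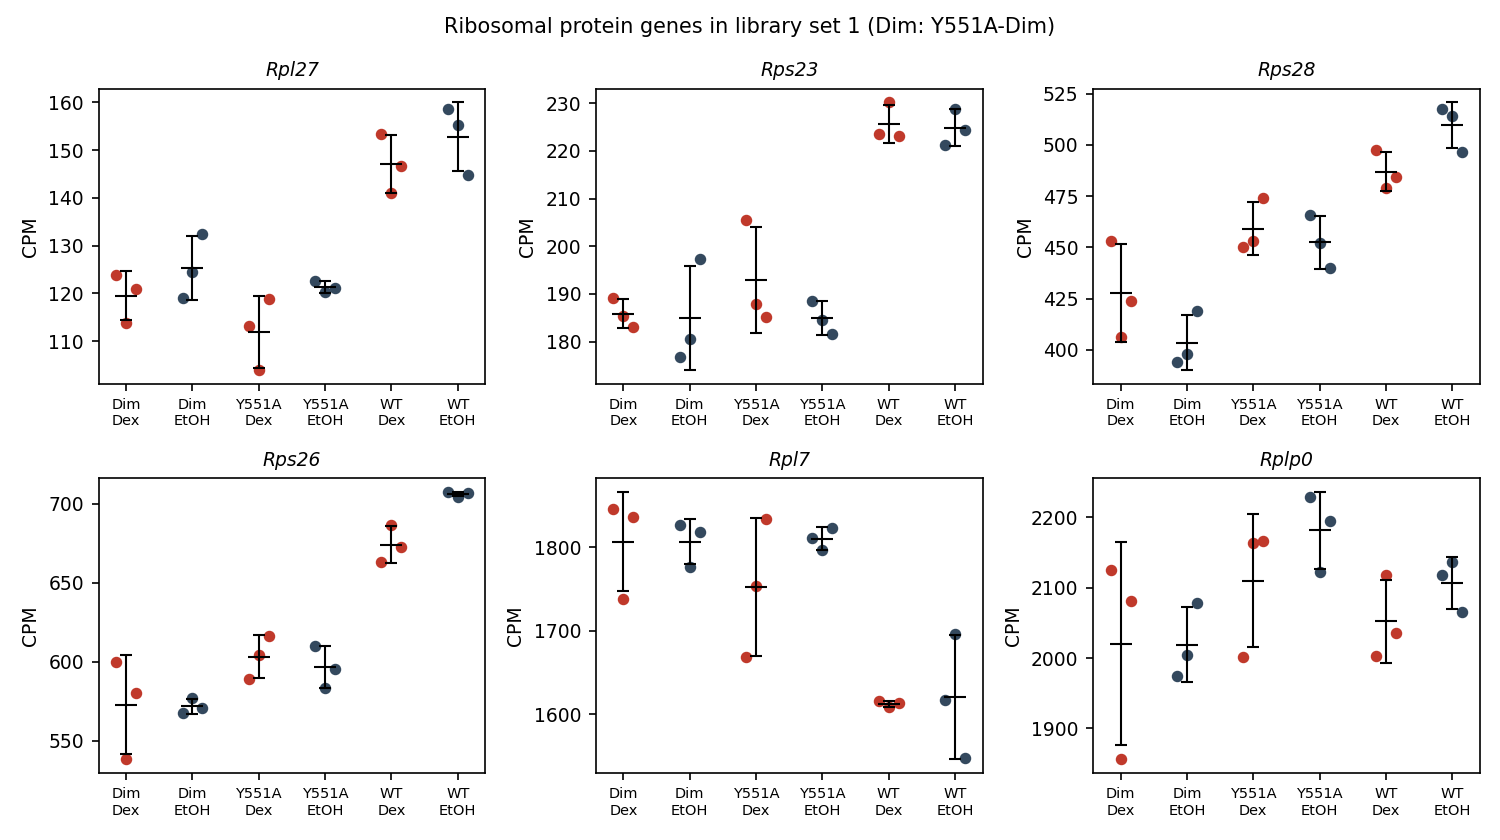
Levels (CPM, vertical axes not starting at 0) of 6 members in the libraries of set 1, red for Dex and dark slate for EtOH, with mean and SD (n = 3 each). Rpl27, Rps23, Rps28 and Rps26 lie below WT in both mutant lines, Rpl7 lies above WT within each treatment, and Rplp0 with EtOH overlaps WT in both.

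Y551A-Dim and Y551A were also compared directly. With EtOH, 13 members were lower and 2 were higher in Y551A-Dim, where 14.2% of all genes were lower and 14.8% higher. The lower members were 16.5% of those tested, near the share of all genes, so their count is not set apart from it. The median member changed by -0.04 log2, and the members below are single cases. Rps28, which also lies near the messenger RNA exit, had 393.8, 397.8 and 418.8 CPM in Y551A-Dim, 465.6, 452 and 439.8 CPM in Y551A and 517.7, 514.1 and 496.7 CPM in WT. The 3 lines stood apart without overlap, with -0.17 ± 0.039 log2 between Y551A-Dim and Y551A. Rpl5, which carries 5S ribosomal RNA and can bind Mdm2, had 208.3, 222.2 and 240.1 CPM in Y551A-Dim, 252.8, 257 and 249.5 CPM in Y551A and 267.1, 268.3 and 260.4 CPM in WT, again in order (-0.18 ± 0.044 log2). Rpl6 (-0.16 ± 0.043) and Rpl10 (-0.13 ± 0.034), a protein added late to the large subunit, fell as well. Rps27a, made as a fusion with ubiquitin, rose by 0.14 ± 0.048 log2, on 500.5, 469.5 and 573.3 CPM in Y551A-Dim and 469.3, 474.6 and 458.6 CPM in Y551A that overlap, and Rps27l rose by 0.13 ± 0.049.

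Other genes that build ribosomes were counted between the same groups. Of 37 assembly factors, 32 were higher and none lower in Y551A-Dim than in Y551A, with a median of 0.26 log2, among them Nhp2 (0.52 ± 0.051), Nop56 (0.44 ± 0.043), Ncl (0.40 ± 0.056) and Fbl (0.39 ± 0.049), proteins of the nucleolus. RNA polymerase I genes and regulators were higher for 9 of 11, with Polr1b at 0.28 ± 0.054 log2 and Ubtf at 0.15 ± 0.038, and mitochondrial ribosomal proteins for 42 of 77. Myc, whose product activates many such genes, had a change of -0.22 ± 0.055 log2 and was lower in Y551A-Dim than in Y551A.

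Against WT, list counts are read beside all genes, of which 13.3% were lower and 10% higher in Y551A-Dim and 23.5% lower and 18.9% higher in Y551A. The assembly list was lower for 11 of 37 in Y551A-Dim (median -0.08) and for 34 of 37 in Y551A (median -0.34), with none higher in either. Nhp2 changed by -0.23 ± 0.05 log2 in Y551A-Dim and -0.75 ± 0.051 in Y551A, and Nolc1 by -0.25 ± 0.046 and -0.67 ± 0.047 in the same order of lines. RNA polymerase I genes were lower for 7 of 11 in Y551A-Dim and 9 of 11 in Y551A. Mitochondrial ribosomal proteins were lower for 19 and higher for 3 of 77 in Y551A-Dim, and lower for 58 in Y551A. TOP-message genes were lower for 9 and higher for 1 of 19 in Y551A-Dim and lower for 9 and higher for 2 in Y551A, where Npm1 fell by 0.53 ± 0.04 and Eef1b2 rose by 0.26 ± 0.044.

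The mitochondrially encoded share of reads was 2.307%, 2.039% and 2.539% in Y551A-Dim with EtOH and 2.177%, 2.439% and 2.17% in Y551A with EtOH, against 1.869%, 1.775% and 1.787% in WT with EtOH, without overlap between mutant and WT libraries. The 5 basal epithelial markers summed to 8.232 to 9.318 CPM in Y551A-Dim and 19.18 to 20.55 CPM in Y551A, against 5.591 to 5.865 CPM in WT, all with EtOH. In these groups the 6 luminal markers summed to 5.711 to 7.241, 6.554 to 7.809 and 7.283 to 7.7 CPM in the same order of lines. The part of these in the baseline differences was not tested.
Gene length was examined beside these baselines too. The correlation of a library's deviation with log2 length ran from -0.14 to 0.091 in Y551A-Dim with EtOH and 0.073 to 0.16 in Y551A with EtOH, against -0.2 to -0.11 in WT with EtOH. With each library's length trend taken out, 55 members were lower in Y551A-Dim and 44 in Y551A. The share of all genes lower in that fit is not given here. The Y551A count was sensitive to the WT libraries: 32 members were called without WT EtOH replicate 1 and 33 without WT EtOH replicate 2. The direct count between the mutant lines fell to 4 without Y551A EtOH replicate 1, 6 without Y551A EtOH replicate 3 and 6 without Y551A-Dim EtOH replicate 1.

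In set 2 few members differed without hormone. Rpl5 was the only member called lower in D647V than in WT, with 253.9, 269.2 and 261.6 CPM in D647V against 327.9 and 295.5 CPM in WT (-0.25 ± 0.07 log2), where 2.78% of all genes were lower and 4.58% higher. The median member in D647V was -0.13 log2, a value that ran from -0.22 to -0.03 as single libraries were left out. The call of Rpl5 was lost when any 1 of the 3 D647V EtOH libraries or WT EtOH replicate 1 was left out, and 4 members were called without WT EtOH replicate 2. Against WT, D647V-Tetra had 1 member called higher (Rpl7, above), where 9.35% of all genes were higher and 9.34% lower, and a median of 0.05 log2 that ran from -0.02 to 0.16; no member was called without WT EtOH replicate 2, and 2 were called without WT EtOH replicate 1 or D647V-Tetra EtOH replicate 2. D647V and D647V-Tetra were set against the same 2 WT libraries.

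Between D647V-Tetra and D647V with EtOH, Rps10 (0.37 ± 0.096 log2), Rpl31 (0.28 ± 0.066) and Rpl5 (0.24 ± 0.063) were higher and none was lower, where 0.53% of all genes were higher and 4% lower. Rpl5 had 336.1, 285.6 and 306.1 CPM in D647V-Tetra against 253.9, 269.2 and 261.6 CPM in D647V, without overlap. The median member was 0.17 log2 higher, and 75 of 79 values lay above 0. No member was called in this comparison without EtOH replicate 1 or 2 of D647V or without EtOH replicate 1 of D647V-Tetra, 1 was called, lower, without D647V-Tetra EtOH replicate 3, and 8 without its replicate 2. With each library's length trend taken out, none was called.

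Of the 79 tested members, 35 were lower in all of the Y551A baseline, the Y551A-Dim baseline and the Dex response of D647V-Tetra, a count to which the shared WT libraries contribute. Taken singly, these comparisons called 23.5%, 13.3% and 7.89% of all genes lower, in the same order. The share of all genes lower in all of them is not given here. Rps16, Rplp2, Rpl4, Rpl6l, Rpl24 and Rps10 were lower in none of these comparisons. The members were also split by shared sequence. In D647V-Tetra with Dex, 22 of the 26 members with over 50% shared windows were lower (median -0.24 log2) and 39 of the 53 others (median -0.25); in the Y551A baseline the counts were 19 and 30, with medians of -0.17 and -0.12.
As reference transcripts, Rplp0, Rpl13a, Rps18 and Rpl19 passed no test of Dex outside D647V-Tetra. At baseline Rpl19 was lower than in WT, with -0.16 ± 0.037 log2 in Y551A-Dim and -0.17 ± 0.037 in Y551A. Rpl13a was lower in both lines as well, with -0.26 ± 0.066 in Y551A-Dim and -0.28 ± 0.066 in Y551A, and Rplp0 was called in neither. Rps18 had -0.13 ± 0.049 log2 in Y551A-Dim, which was not called, and -0.13 ± 0.049 in Y551A, which was. None of the 4 was called between the lines of set 2.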

How the data were processed

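Per the labels, total RNA was sequenced as 100 bp read pairs after ribosomal RNA depletion, with 5% Drosophila S2 cells added. Per the submitters' processing notes, reads were handled with bcl2fastq 2.17, cutadapt and STAR on mm10. Per the file headers, the authors deposited whole-number read counts for each gene name, made with featureCounts 2.0.3 (strand option 2, exons, GENCODE vM21), both mates counted, multi-mapping and multi-gene reads left out. Spike-in reads were not used here.

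With R 4.3.3, edgeR 4.0.16 and limma 3.58.1, genes were kept by filterByExpr, libraries scaled by TMM, and a quasi-likelihood model with a mean per group fitted to each library set (18 libraries, 16140 genes, 12 residual degrees of freedom; 16 libraries, 17535 genes, 10 residual degrees of freedom). DESeq2 1.42.0 was an alternative. Two-sided p-values were adjusted by the Benjamini-Hochberg method across every gene tested; called means an adjusted p under 0.05 with no fold minimum. SE is the absolute log2 change over the square root of F; level errors are SD. CPM use TMM-scaled totals; CPM per kb use the exon length in the files. The length offset is a lowess curve (span 0.3) of each library's log2 CPM deviation over log2 length. Scripts were tested on simulated counts. No replicate pair agreed within counting noise.

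The members, lists and tests were chosen with earlier results of these data known. Named with values are up to 4 called members with the highest and 4 with the lowest change per comparison, Rplp0, Rpl13a, Rps18 and Rpl19, the stalk genes, the extremes of level, untested members and paralogue pairs. Rpl6, Rpl24, Rps10, Rps24, Rps26, Rps29 and Rps27l in D647V-Tetra, values repeated across lines, the split by shared sequence and the promoters shown were chosen after their values were seen.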

Additional observations from a re-analysis of the deposited data

How the results depend on the processing

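No value of a named member that was called in the main fit or in the alternative changed its sign between them. Sign changes of values called in neither fit were not counted. Of 526 values of called members, 409 kept their call and 117 lost it, and of 1124 values of members not called, 38 gained a call. For the Dex response of D647V-Tetra, with 61 members called, 28 were called with the length offset, 14 with the offset on principal transcripts (chosen after seeing the data), and 5 to 66 with a library left out; the other scalings and DESeq2 gave 60 to 67, and no filter on low counts 73. The Y551A baseline, with 50 called, gave 32 to 46 with a library left out; Y551A-Dim against Y551A, with 15, gave 25 with the principal-transcript offset and 4 to 14; Y551A-Dim against WT, with 52, gave 41 to 52.

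Without the low-count filter, members called numbered 1 in the Dex response of Y551A, 13 in that of D647V, 13 in the D647V baseline, 4 in the D647V-Tetra baseline against WT, 43 for D647V-Tetra against D647V, and, for differences of response, 1 for Y551A-Dim minus Y551A, 5 for D647V minus WT, 52 for D647V-Tetra minus WT and 9 for D647V-Tetra minus D647V; this setting also tests more genes and refits the spread, and the cause was not tested. DESeq2 called 3 in the D647V baseline, 15 for D647V-Tetra against D647V, 9 for D647V-Tetra minus WT and 3 for D647V-Tetra minus D647V. Scaling by library totals gave 2 and 6 in the D647V baseline and in D647V-Tetra against D647V. Fitting only the groups compared gave 2 in the Dex response of WT of set 1 and 0 for D647V-Tetra against D647V, which both length offsets also brought to 0. With a library left out, counts ran 0 to 1 in the Dex response of Y551A-Dim, 0 to 3 in that of D647V, 0 to 4 in the D647V baseline, 0 to 2 in the D647V-Tetra baseline against WT, 0 to 8 for D647V-Tetra against D647V and 0 to 17 for D647V-Tetra minus WT. An arm left with 1 library is assumed to vary like the other groups. The share of all genes called is not given here for any of the other settings, so the counts under them are not set apart from it.

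The replicate numbers were not taken as pairs, because no comparison had 3 pairs whose deviations all correlated above 0.1. Comparisons with WT of set 2 have 2 pairs and could not meet this rule. In the D647V-Tetra baseline against WT those pairs correlated at 0.42 and 0.503. With a replicate block, 40 members were called in D647V-Tetra with Dex, 12 with block and length offset, and 0 in the D647V baseline and in D647V-Tetra against D647V, also with both; other counts stayed within 1.5 times. Same-numbered WT libraries of set 2 correlated at -0.54, and the crossed pairing, chosen after seeing the data, called 0.

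Counting precision is not the limit for most members; 2 or 3 libraries per group, 1 line per receptor form and uniquely assigned reads are.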
